A study of Mus musculus with 2 samples.

Results

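The cells described here were pancreatic epithelial cells of the mouse embryo that held Spp1 transcripts together with a few transcripts of Neurog3. They were chosen by raw counts of unique molecular identifiers (UMIs), each of which marks 1 captured RNA molecule. A cell needed at least 1000 UMIs, at most 20% mitochondrial UMIs, at least 3 Spp1 UMIs and 1 to 3 Neurog3 UMIs. It also had to stay under 5 UMIs summed over 8 genes of S, G2 and M phase (Top2a, Mki67, Ccna2, Cdk1, Aspm, Cenpf, Birc5 and Ube2c), under 3 of Chgb, under 10 of Ins1 and Ins2, under 3 of Gcg and under 15 of the acinar enzyme genes Cpa1, Ctrb1, Pnliprp1 and Clps. Of 1635 deposited barcodes, these limits selected 81, called low cells below: 27 from library 1, which held 535, and 54 from library 2, which held 1100. The same limits with 0 Neurog3 UMIs gave 63 and 115 zero cells, and with 4 or more Neurog3 UMIs they gave 20 and 46 high cells.

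Both libraries belong to 1 group, wild-type embryos at stage E14.5, and no treatment or mutant was compared. The labels name the tissue pancreas and the cell type pancreatic islet, and say that endocrine cells were enriched by a flow sort on the reporter Ngn3eGFP, taking low and high cells. The sort can set the shares of cells with few or many Neurog3 transcripts, and the labels do not say in which proportion the sorted fractions entered each library. Nor do they say whether the libraries came from separate embryos. The p-values thus measure only how differences between kinds of cell vary between these 2 samples, and this spread may be technical.

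Neurog3 encodes a basic helix-loop-helix factor that commits pancreatic epithelial cells to the endocrine fate. In the embryo, cells of the epithelial trunk express Sox9 and Spp1 and can become duct cells or, after switching on Neurog3, endocrine cells. Notch signalling through Hes1 holds Neurog3 down in trunk cells, while cells with much Neurog3 leave the cell cycle, express Notch ligands such as Dll1 and go on to express Insm1, Neurod1, Nkx2-2 and Pax4.

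Library 1 held 1910588 UMIs and library 2 held 3425983. The 2 libraries shared 3 barcodes, and 0 of these were low or zero cells. Doublet calling with Scrublet marked 10 and 3 barcodes, of which 0 were low cells, 1 was a zero cell and 1 a high cell, both in library 1. The low cells held 89377 UMIs in library 1 and 156940 in library 2. Xist, the RNA of the inactive X chromosome, stood at 416, 996 and 394 CPM (UMIs of the gene per 1000000 UMIs of the class) in the zero, low and high cells of library 1, and at 39.5, 38.2 and 33.0 CPM in those of library 2. In library 1 the low cells thus had the highest Xist level of these 3 classes, and the part of embryo sex in the results was not tested.

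The Neurog3 counts that chose the low cells lay mostly at the lower end of their range. In library 1, 18 low cells had 1 Neurog3 UMI, 3 had 2 and 6 had 3. In library 2 these numbers were 32, 10 and 12. Just outside the upper limit, 2 and 10 Spp1 cells had 4 Neurog3 UMIs, and the high cells reached 25 UMIs in library 1 and 31 in library 2. Low cells made up 24.5% of the zero, low and high cells in library 1 (95% Clopper-Pearson interval 16.8 to 33.7%) and 25.1% in library 2 (19.5 to 31.5%), so the libraries did not differ beyond counting error in this share. At the Spp1 limit, 3 cells with 1 to 3 Neurog3 UMIs had exactly 3 Spp1 UMIs in each library, and 4 and 5 cells lay just outside with 2. Intervals here and below cover counting error only.

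**Figure D1:**
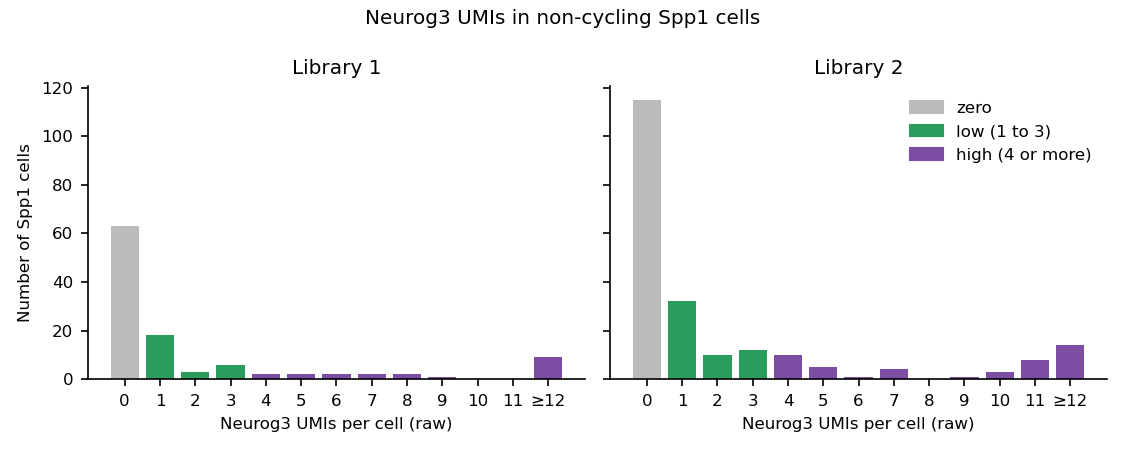
Number of non-cycling Spp1 cells (vertical axis) at each raw count of Neurog3 UMIs per cell (horizontal axis, last bar 12 or more), for library 1 (left) and library 2 (right), coloured by class. Most low cells stand at 1 UMI (18 of 27 and 32 of 54), beside 63 and 115 cells at 0.

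The low cells were not deeper than the zero cells. Their median was 3389 UMIs in library 1 and 2480.5 in library 2, against 3728 and 2529 in zero cells, while high cells had 4196.5 and 3105. The median mitochondrial share was 4.09% in both libraries for low cells and 4.34% and 3.83% for zero cells. Spp1 itself, which the rule used, stood at 2573 and 4180 CPM in low cells, 2918 and 4846 CPM in zero cells and 1725 and 2796 CPM in high cells. Spp1, a secreted phosphoprotein abundant in duct epithelium, was thus lowest in the high cells of each library, and library 2 was above library 1 in every class.

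The name trunk was checked against genes that the rule did not use. Sox9, the transcription factor of the trunk, reached 492 and 1281 CPM (unscaled) in low cells, against 0 and 28.8 CPM in the immune cells of the same libraries and 161 and 134 CPM in acinar cells. Immune cells were barcodes with at least 10 UMIs over 6 macrophage genes (8 and 42 cells), and acinar cells had at least 15 UMIs of the enzyme genes (13 and 98 cells). Of 19 trunk and duct markers besides Spp1, 18 had a UMI in the low cells of each library, with Car2 at 0 in library 1 and Mmp7 at 0 in library 2. Their summed level was 5337 and 7283 CPM in low cells, 6404 and 7562 CPM in zero cells, and 735 and 534 CPM in immune cells. High cells had 4100 and 4030 CPM and acinar cells 2297 and 2200 CPM. In both libraries the low cells thus lay between the zero and high cells in these markers, and above the acinar and immune cells.

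Immune and acinar markers were low in the selected cells beside the immune and acinar cells. For the mesenchymal, endothelial and hormone lists no cells of that type were set beside them. The 13 immune markers summed to 157 and 261 CPM in low cells, 182 and 131.5 CPM in zero cells and 10290 and 12070 CPM in immune cells. In library 2 the low cells thus stood above the zero cells in this sum. C1qa, C1qb, C1qc and Lyz2 were at 0 in the low cells of library 1 and had 1, 2, 2 and 3 UMIs in those of library 2. Ptprc had more, with 5 and 12 UMIs in low cells and 18 and 16 in zero cells. In library 2, Cx3cr1 and Laptm5 had 7 UMIs each in low cells, against 1 and 2 in zero cells. The 12 acinar markers outside the rule summed to 291 and 178 CPM in low cells and 3184 and 4418 CPM in acinar cells. Cela1, Prss2 and Try4 were at 0 in the low cells of both libraries. Prss2 and Try4 were also at 0 in the acinar cells of library 1. Amy2a5 went the other way there, with 5 UMIs in low cells (55.9 CPM) and 1 in acinar cells (13.4 CPM). Nr5a2 had 5 and 8 UMIs in low cells and Reep5 had 4 and 13. The 11 mesenchymal markers summed to 414.0 and 484 CPM in low cells and 382 and 588 CPM in zero cells. In immune cells they summed to 327 and 209 CPM. Acta2, Fbn1 and Lum were at 0 in low cells, while Ptn supplied 21 of 37 and 46 of 76 of their mesenchymal UMIs. The 9 endothelial markers summed to 224 and 95.6 CPM in low cells against 152 and 158 CPM in zero cells. Cdh5 and Cldn5 were at 0 in low cells, and Egfl7 had the most UMIs there, 8 and 4. The 15 hormone and late endocrine markers summed to 1522 and 2103 CPM in low cells and 2181 and 2039 CPM in zero cells. Immune cells had 1144 and 1788 CPM and acinar cells 1961 and 2039 CPM of these markers. For none of these 5 lists were both libraries of the low cells above both libraries of the zero cells.

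A single UMI can come from RNA free in the suspension, so the share of Spp1 cells with 1 to 3 Neurog3 UMIs was set beside cell types that should lack the gene. Among zero and low cells together, that share was 30.0% in library 1 (27 of 90 cells, interval 20.8 to 40.6%) and 31.9% in library 2 (54 of 169, 25 to 39.5%), at medians of 3570.5 and 2507 UMIs. Among immune cells it was 37.5% in library 1 (3 of 8, 8.52 to 75.5%) and 11.9% in library 2 (5 of 42, 3.98 to 25.6%), at medians of 2762 and 3124.5 UMIs. In library 2 the Spp1 cells stood above the immune cells, although these were deeper, and the intervals just overlapped. In library 1 a share above the immune level was not detectable with 8 immune cells. Among the deeper acinar cells the share was 15.4% (2 of 13) and 7.14% (7 of 98).

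Thinning every cell to 1000 UMIs removed the depth difference. The share with a Neurog3 UMI was then 15.6% and 17.8% in zero and low cells, 12.5% and 2.38% in immune cells and 0 of 13 and 2.04% in acinar cells, where 0 of 13 allows up to 23.1%. As a level, Neurog3 stood at 131 and 191 CPM in zero and low cells together, and at 122 CPM (25.3 to 358) and 43.3 CPM (15.9 to 94.2) in immune cells. The level in Spp1 cells was thus above the immune interval in library 2 and inside it in library 1. How many of the low cells hold Neurog3 from free RNA was not tested cell by cell.

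The main comparison set low cells against zero cells, which met the same limits in all other rule genes. UMIs were summed per library and class, and edgeR's quasi-likelihood test with library as a block was run over 6206 genes, leaving out the 18 genes the rule used. Insm1 was higher in low cells at an adjusted p under 0.05, and no other gene was called. The call is 1 of 6206 genes, or 0.0161%, and 0% were called lower. At an unadjusted p under 0.05, 169 genes (2.72%) were higher and 153 (2.47%) lower. DESeq2 also called 1 gene higher and 0 lower, with 66 and 32 at an unadjusted p under 0.05. From here on, unless called unscaled, CPM uses library sizes scaled by TMM, and levels are compared between classes and not between genes.

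Insm1 encodes a zinc-finger transcription factor of early endocrine differentiation and lies on chromosome 2 at 146221921 to 146225020, plus strand (GRCm38). Its level was 60.8 and 62.6 CPM in the zero cells of libraries 1 and 2, 167 and 382 CPM in the low cells, and 974 and 960.3 CPM in the high cells. The classes did not overlap, and the low cells of library 2 stood well above those of library 1. The rise from zero to low cells was 2.21 ± 0.32 (SE) on the log2 scale, 4.62-fold, with an adjusted p of 0.000561, and in single libraries it was 1.44 and 2.59. These levels rest on 14 and 19 UMIs in zero cells and 15 and 60 UMIs in low cells.

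Across the 20 alternatives with a test the adjusted p for Insm1 ranged from 2.22e-07 to 0.932, and it was called in 19. The exception took only the low cells with 1 Neurog3 UMI, where the fold was 1.48 on the log2 scale with an adjusted p of 0.932. With the low cells of 2 or 3 Neurog3 UMIs it was 2.85, with an adjusted p of 5.74e-06. With each cell thinned to 1000 UMIs it was 2.16, with an adjusted p of 0.0365, and with zero cells drawn to the depths of the low cells it was 2.89, with an adjusted p of 0.00125. Insm1 was thus called at matched depth. The alternatives that removed doublets, shared barcodes or cells past the immune limit could hardly change this call. They took out 0 low cells and at most 1 zero cell.

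As a share of cells, Insm1 had a UMI in 33.3% (9 of 27) and 38.9% (21 of 54) of low cells, against 14.3% (9 of 63) and 7.83% (9 of 115) of zero cells and 75.0% and 82.6% of high cells. The background share was 12.5% (1 of 8) and 9.52% (4 of 42) in immune cells and 30.8% (4 of 13) and 11.2% (11 of 98) in acinar cells. In library 2 the low cells were above both background types by non-overlapping intervals (25.9 to 53.1% against at most 22.6%). In library 1 their interval of 16.5 to 54.0% overlapped those of both types, so a share above background was not detectable there. After thinning, 18.5% and 24.1% of low cells and 4.76% and 4.35% of zero cells kept an Insm1 UMI. For comparison, Pyy, an abundant hormone transcript, had a UMI in 33.3% and 18.5% of low cells, 23.8% and 18.3% of zero cells and 25% and 23.8% of immune cells, a similar share in all of them.

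**Figure D2:**
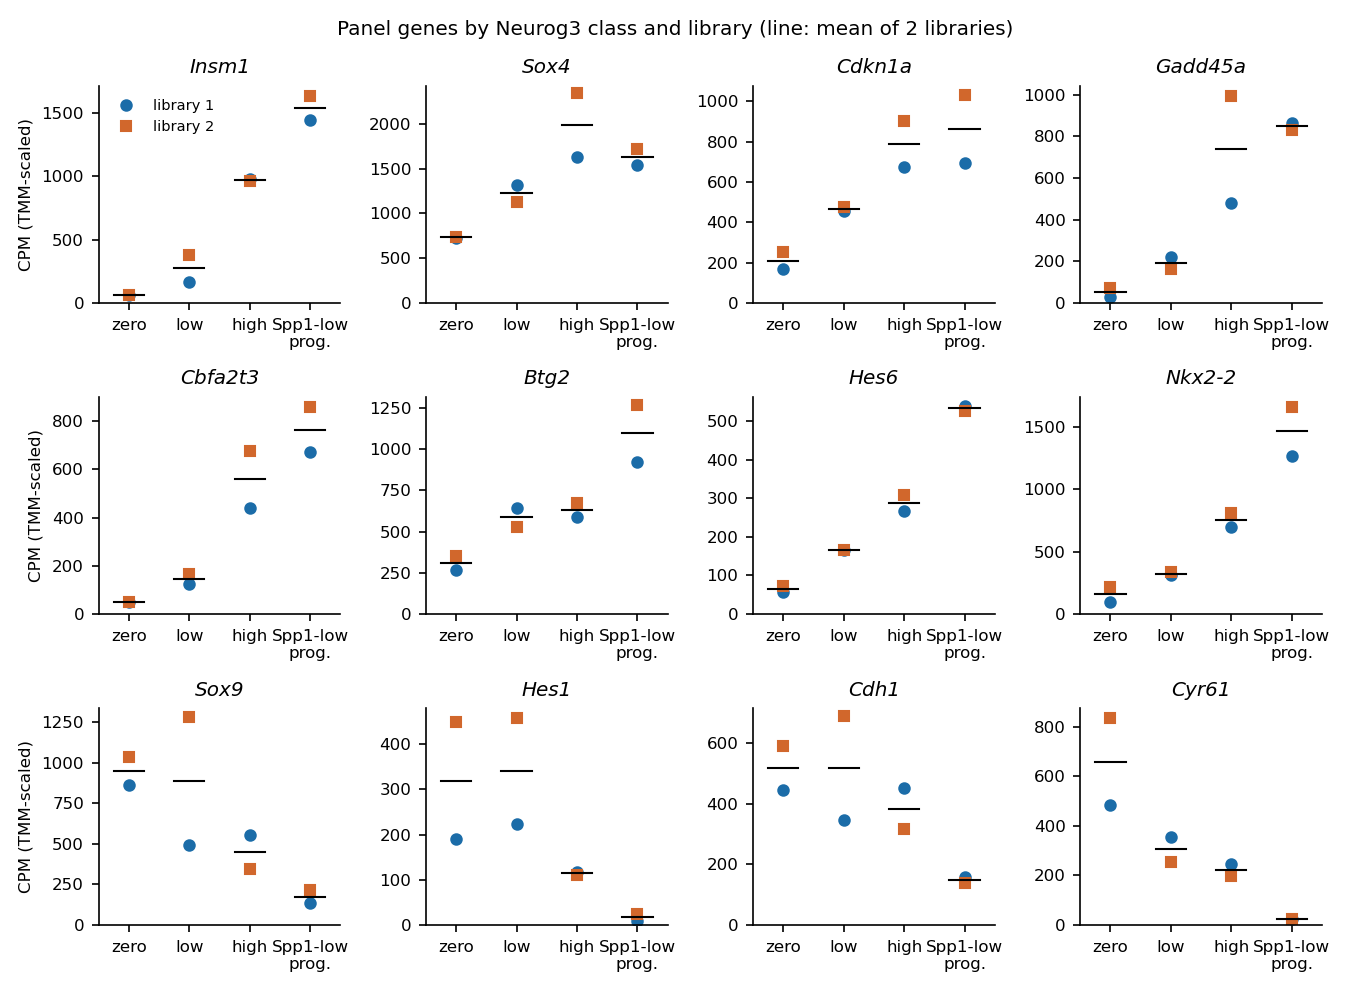
Level of 12 genes (vertical axes, CPM on TMM-scaled library sizes) in 4 classes (horizontal axes), for library 1 (circles) and library 2 (squares), with the mean of the 2 libraries as a line. The class at the right has 4 or more Neurog3 UMIs and under 3 Spp1 UMIs. Insm1 goes from 60.8 and 62.6 CPM in zero cells to 167 and 382 in low and 974 and 960.3 in high cells, while Hes1 is similar in zero and low cells of each library and lower in high cells.

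Other genes of the Neurog3 stage were mostly higher in low than in zero cells, without passing the test. A list of 38 such genes had 33 members that passed the filter on low counts, of which 1, Insm1, was called higher and 0 lower. At an unadjusted p under 0.05, 15 were higher and 0 lower, and the median log2 fold was 0.90, with 0.85 in library 1 and 0.78 in library 2, against -0.01 over all genes tested. In 19 of the 33 both low libraries were above both zero libraries, and in 1 both were below, against 16.2% and 17.2% of all genes tested. The list was written with earlier results of these data known. Some members, Pax4 among them, passed the filter through classes with more Neurog3. These counts are therefore a description and not independent support.

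Sox4, an HMG-box factor of endocrine progenitors, had 730 and 742 CPM in zero cells, 1313 and 1132 CPM in low cells and 1627 and 2342 CPM in high cells. Its difference between low and zero cells was 0.72 ± 0.16 on the log2 scale with an adjusted p of 0.127. Cdkn1a, which encodes the cell cycle inhibitor p21, had 169 and 251 CPM in zero cells and 456 and 477 CPM in low cells, a difference of 1.14 ± 0.24 with an adjusted p of 0.126. Both low libraries were above both zero libraries for each gene, at a size that did not pass over 6206 genes.

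Gadd45a, a growth-arrest gene, had 30.4 and 72.5 CPM in zero cells and 223 and 165 CPM in low cells (1.81 ± 0.41, adjusted p 0.127). Cbfa2t3, a transcriptional co-repressor, had 47.8 and 49.5 CPM in zero cells and 122 and 165 CPM in low cells (1.57 ± 0.38, adjusted p 0.227). The antiproliferative gene Btg2 had 265 and 353 CPM in zero cells and 645 and 528 CPM in low cells (0.90 ± 0.23, adjusted p 0.355). These 3 genes also showed no overlap between the libraries of the 2 classes, and none passed.

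Nkx2-2, an endocrine transcription factor, had 99.9 and 221 CPM in zero cells and 312 and 337 CPM in low cells, with an adjusted p of 0.495. Hes6, an inhibitor of Hes1, had 56.5 and 72.5 CPM in zero cells and 167 and 165 CPM in low cells, with an adjusted p of 0.484. Dll1 and Mfng were nearer the detection limit. In libraries 1 and 2 their log2 folds were 0.32 and 3.09 for Dll1 and 2.55 and 2.62 for Mfng. The Notch ligand gene Dll1 had 8.69 and 6.59 CPM in zero cells and 11.1 and 63.6 CPM in low cells, which is 1 and 10 UMIs (adjusted p 0.868), and the Notch modifier gene Mfng had 8.69 and 3.30 CPM against 55.6 and 25.4 CPM, 5 and 4 UMIs (adjusted p 0.777).

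Later endocrine genes had few UMIs in low cells, and 0 were called. Neurod1, a target of Neurog3, had 17.4 and 23.1 CPM in zero cells and 0 and 31.8 CPM in low cells, where 0 UMIs in library 1 allow up to 33.6 CPM. Pax4, a beta and delta lineage factor, had 1 and 1 UMIs in zero cells and 2 and 1 in low cells. Fev, a marker of later endocrine precursors, had 10 and 8 UMIs in zero cells (43.5 and 26.4 CPM) and 1 and 1 in low cells (11.1 and 6.36 CPM), and did not pass the filter for testing. The granule protein gene Chga had 43.5 and 46.2 CPM in zero cells and 33.4 and 50.9 CPM in low cells (adjusted p 0.996). Of 49 genes of secretory granules and exocytosis, 19 were tested, 0 were called in either direction (1 higher and 0 lower at an unadjusted p under 0.05) and their median log2 fold was -0.04.

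Genes of the trunk were not called lower in low cells. Hes1, the Notch effector that represses Neurog3, had 191 and 448 CPM in zero cells and 223 and 458 CPM in low cells, a difference of 0.11 ± 0.29 on the log2 scale. Sox9 had 865 and 1035 CPM in zero cells and 490 and 1279 CPM in low cells, a difference of -0.10 ± 0.24 that was -0.82 in library 1 and 0.30 in library 2. The 2 libraries thus moved opposite ways for Sox9, and the standard errors leave room for sizeable differences in both genes.

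The wider trunk lists also had 0 calls. Of 31 trunk and foregut transcription factors, 21 were tested and 0 called by edgeR, with 0 higher and 2 lower at an unadjusted p under 0.05 (Onecut1 and Nkx6-1) and a median of -0.10 (-0.39 in library 1 and 0.03 in library 2). Of 20 trunk and duct markers, 15 were tested and 0 called, with 0 higher and 2 lower at an unadjusted p under 0.05 (Onecut1 and the sodium pump subunit gene Atp1b1) and a median of -0.18 (-0.23 and -0.19). Both low libraries lay below both zero libraries in 5 of the 21 factors and 6 of the 15 markers, and above them in 0 and 1, against 17.2% and 16.2% of all genes tested. Of 37 Notch pathway genes, 18 were tested and 0 called, with 3 higher (Dll1, Mfng and Numbl) and 0 lower at an unadjusted p under 0.05, a median of 0.12, and 5 above and 3 below without overlap. These genes with a low unadjusted p were named after their values were seen.

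Among single genes of the trunk, 3 panel genes stood lower in low cells without passing. Nkx6-1, a transcription factor of trunk and beta cells, had 235 and 280.3 CPM in zero cells and 77.9 and 204 CPM in low cells (-0.81 ± 0.33, adjusted p 0.915). Notch2 had 139 and 109 CPM against 55.6 and 82.7 CPM (-0.75 ± 0.47, adjusted p 0.976). Cyr61, a matrix-associated target of YAP, had 482 and 834 CPM in zero cells and 356 and 254 CPM in low cells (-1.13 ± 0.33, adjusted p 0.555), and was called lower without the filter on low counts and with a stricter limit on cycle genes. For each of these 3 genes both zero libraries were above both low libraries. The adhesion gene Cdh1 (0.04 ± 0.26), the filament gene Vim (-0.04 ± 0.22) and the pancreatic factor gene Pdx1 (0.06 ± 0.48) had differences near 0.

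**Figure D3:**
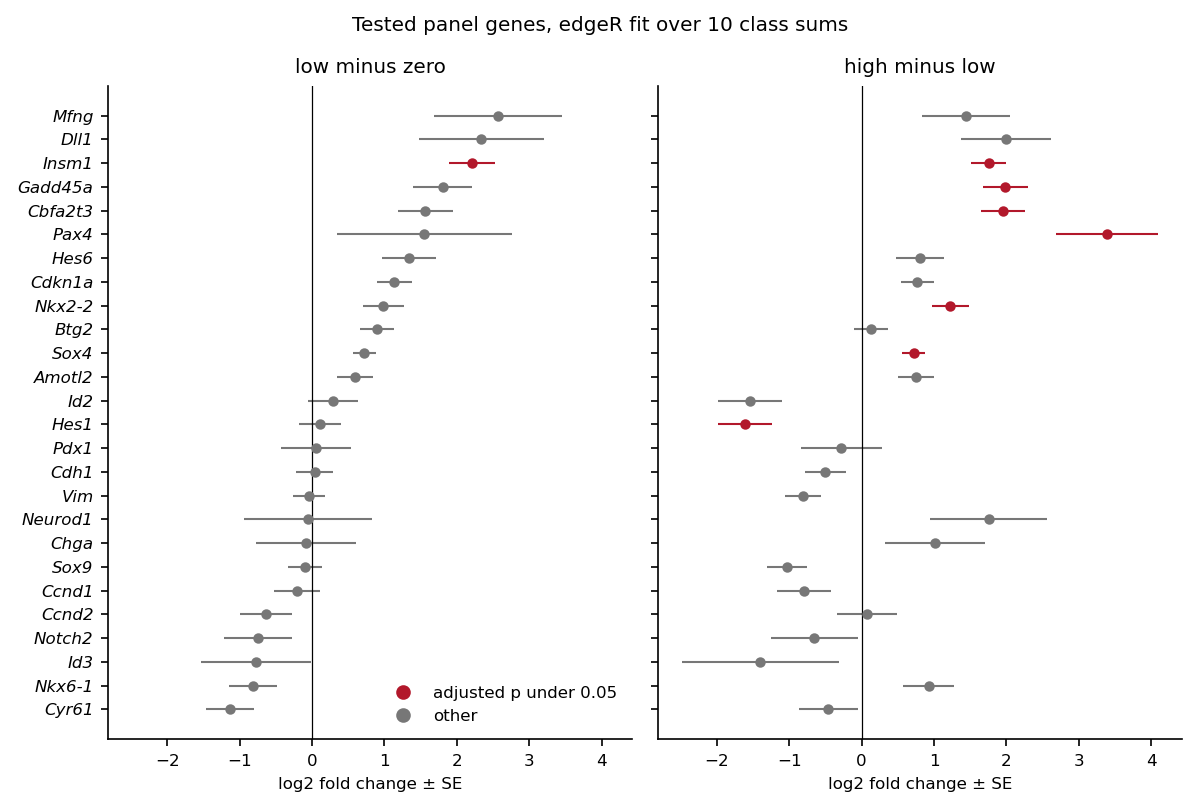
Log2 fold change with its standard error (horizontal axes) for tested genes of a panel of 28, for low minus zero cells (left) and high minus low cells (right). Red marks an adjusted p under 0.05, which Insm1 reaches at left and 7 genes reach at right, Pax4 among them from 3 UMIs in low cells.

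Transcripts of the trunk and of the endocrine programme were then scored cell by cell. A cell was scored for any UMI of 3 trunk genes (Sox9, Hes1 and Notch2) and of 8 endocrine genes (Hes6, Insm1, Neurod1, Nkx2-2, Pax4, Dll1, Mfng, Cbfa2t3), a grouping made for description only. Of the low cells, 11 of 27 and 40 of 54 held both, 7 and 9 held only trunk genes, 7 and 5 only endocrine genes, and 2 and 0 neither. Both were held by 31 of 63 and 41 of 115 zero cells and by 8 of 13 and 44 of 98 acinar cells, so holding both was not more common in low than in zero cells of library 1. After thinning to 1000 UMIs, 5 and 19 low cells and 8 and 17 zero cells held both. An endocrine UMI was present in 66.7% and 83.3% of low cells and 55.6% and 41.7% of zero cells. After thinning, the shares with an endocrine UMI were 44.4% and 59.3% of low cells, 22.2% and 24.3% of zero cells, 37.5% and 19.0% of immune cells and 38.5% and 21.4% of acinar cells.

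The thinned share in low cells was above the immune and acinar shares in library 2 by non-overlapping intervals (45.0 to 72.4% against at most 34.1%). In library 1, at 25.5 to 64.7%, it could not be separated from theirs. The thinned share of cells with a trunk UMI was 48.1% and 68.5% in low cells, 52.4% and 72.2% in zero cells and 25% and 34.8% in high cells. Low cells thus resembled zero cells in this measure within the intervals of either library, while high cells of library 2 lay below both (21.4 to 50.2% against at least 54.4%).

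Low cells differed among themselves with their Neurog3 count, which is given here as a description. In library 1, Insm1 stood at 66.7 CPM (unscaled) in cells with 1 Neurog3 UMI, 391 CPM with 2 and 366 CPM with 3, against 60.7 CPM in zero cells. In library 2 it was 255, 494 and 601 CPM, against 62.5 CPM in zero cells. Cells with 1 Neurog3 UMI were thus at the zero-cell level of Insm1 in library 1 and above it in library 2, and cells with 2 or 3 were above it in both.

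Sox4 had 1167, 2051 and 1411 CPM at 1, 2 and 3 Neurog3 UMIs in library 1 and 830, 1024 and 1933 CPM in library 2. Nkx2-2 had 217, 293 and 627 CPM in library 1 and 255, 353 and 522 CPM in library 2, an increase with each step in both. Cdkn1a had 450, 1172 and 105 CPM in library 1 and 199, 459 and 1149 CPM in library 2, so its order was not shared. Sox9 had 600, 586 and 105 CPM in library 1 and 1406, 1024 and 1175 CPM in library 2. The groups of 2 and 3 UMIs in library 1 held 3 and 6 cells, and their intervals are wide.

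Tested apart, the 2 kinds of low cell gave different counts. With only the cells of 1 Neurog3 UMI (18 and 32 cells), edgeR called 0 genes against zero cells, with 150 higher and 147 lower at an unadjusted p under 0.05. With only the cells of 2 or 3 UMIs (9 and 22 cells), 9 were called higher and 0 lower: Insm1, Cdkn1a, Gadd45a, Cbfa2t3, Sox4, Amotl2, Btg2, Btbd17 and the unnamed transcript 1700034P13Rik. At an unadjusted p under 0.05, the balance was the other way, with 179 higher and 260 lower. Among them Cdkn1a had a log2 fold of 1.59 ± 0.28 (adjusted p 0.00586, range over its 20 alternatives 0.00586 to 0.957) and Gadd45a 2.51 ± 0.47 (adjusted p 0.00876, range 0.00876 to 0.965). Neither kind reached the planned minimum of 20 cells in library 1, so both were run without that minimum, a choice made after the data were seen. The difference between the 2 kinds of cell was not tested directly, and DESeq2 was not run on these splits.

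**Figure D4:**
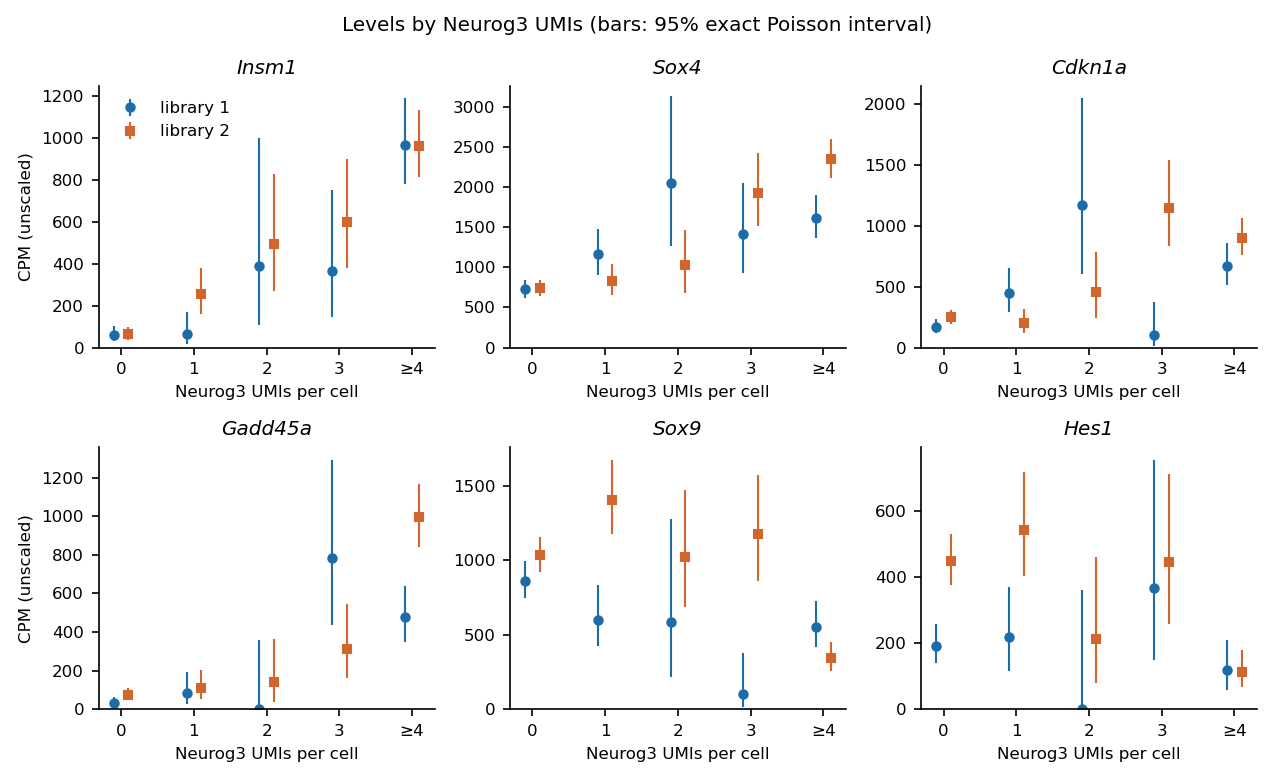
Level of 6 genes (vertical axes, unscaled CPM) by raw Neurog3 UMIs per cell (horizontal axes) in Spp1 cells of library 1 (circles) and library 2 (squares), with 95% exact Poisson intervals as bars. Insm1 at 1 Neurog3 UMI is 66.7 CPM in library 1 and 255 CPM in library 2, and reaches 969 and 963 CPM at 4 or more.

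High cells were compared with low cells in the same fit, which shares the low-cell sums with the first comparison. Of 6206 genes, 23 (0.371%) were higher in high cells and 14 (0.226%) lower, or 0.596% in all, and single libraries had the sign of the fit for each of the 37. At an unadjusted p under 0.05, 277 (4.46%) were higher and 279 (4.5%) lower. By DESeq2, 12 were higher and 6 lower. Thinned to 1000 UMIs, which left 1619 genes to test, the count was 7 and 7, and without the library block it was 11 and 3. With low cells of 2 or 3 Neurog3 UMIs edgeR called 0 and 0, with 296 and 174 at an unadjusted p under 0.05.

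The early Neurog3-stage list supplied 10 of the 23 genes that rose: Btbd17, Cbfa2t3, Gadd45a, Insm1, Nkx2-2, Pax4, Sox4, Syt13, Tox3 and Ypel3, with the limit on Pax4 given below. Of its 33 tested members 0 fell, and the median log2 fold was 1.22, against -0.01 over all genes. The list was written with earlier results of these data known, so these counts are a description. Insm1 rose by 1.75 ± 0.25 (adjusted p 0.000142) and Nkx2-2 from 312 and 337 CPM to 696 and 809 CPM (1.22 ± 0.26, adjusted p 0.0140). Pax4 had 2 and 1 UMIs in low cells and 14 and 19 in high cells. It entered the test only through the classes where it is high, so its call is given as a description and supports nothing. Sox4 rose by 0.72 ± 0.16 (adjusted p 0.0223), and Gadd45a from 223 and 165 CPM to 482 and 993 CPM (1.99 ± 0.32, adjusted p 0.000592). The high libraries lay above the low libraries for each of these genes.

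Cbfa2t3 rose from 122 and 165 CPM in low cells to 439 and 677 CPM in high cells (1.95 ± 0.30, adjusted p 0.000471). Its promoter window is printed because the gene stood out in this comparison and its window holds an E-box of the kind that Neurog3 and related factors bind, CAGATG, or CATCTG on the other strand. The letters are the RefSeq sequence of GRCm38.p6, the 250 bases before the annotated start at chr8:122699110-122699359, minus strand, read towards the gene, with the E-box in capitals at 177 to 172 bases before the start.

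Cbfa2t3: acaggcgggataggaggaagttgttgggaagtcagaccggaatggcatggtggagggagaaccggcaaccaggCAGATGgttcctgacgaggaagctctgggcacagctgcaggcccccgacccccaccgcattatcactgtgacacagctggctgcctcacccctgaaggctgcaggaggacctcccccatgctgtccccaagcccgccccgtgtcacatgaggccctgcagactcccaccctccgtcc

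Of the 38 early-stage genes, 30 matched a window in the RefSeq table, and 8 of their 34 windows (23.5%) held CATCTG or CAGATG in those 250 bases, against 4745 of 32851 windows (14.4%) in the whole table. A match describes the letters and is not evidence of binding. Insm1 had no window in the table.

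Among the other genes named by the rule, Tmsb4x, which encodes the actin-binding peptide thymosin beta 4, had 300 and 458 CPM in zero cells, 657 and 592 CPM in low cells and 1542 and 1658 CPM in high cells, a rise of 1.38 ± 0.17 from low to high with an adjusted p of 2.55e-05. Tox3, an HMG-box gene of the early-stage list above, rose from 33.4 and 108 CPM to 268 and 414 CPM (2.21 ± 0.39, adjusted p 0.00274). Pard3, a cell polarity gene, rose from 156 and 318 CPM to 621 and 572 CPM (1.28 ± 0.31, adjusted p 0.0429).

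Outside the gene lists the largest rises were in Fam192a, Pcbp4, Tmem171 and Tpp1. Fam192a had 0 UMIs in the low cells of either library and 8 and 12 UMIs in high cells. Its level was thus at least 6.69-fold higher in high cells, taking 3 UMIs over both libraries as the floor. Like Pax4, it entered the test through the class where it is high, so its call is given as a description and supports nothing. Pcbp4, an RNA-binding protein gene, rose from 44.5 CPM in both libraries to 193 and 184 CPM (2.06 ± 0.49, adjusted p 0.0411). Tmem171 rose from 77.9 and 127 CPM to 257 and 566 CPM (1.98 ± 0.38) and the lysosomal peptidase gene Tpp1 from 89.0 and 44.5 CPM to 289 and 184 CPM (1.86 ± 0.46). For 3 of these genes the zero cells also stood above the low cells in each library, with 109 and 145 CPM of Tpp1, 69.5 and 82.4 CPM of Pcbp4 and 1 and 9 UMIs of Fam192a. For Fam192a in library 1 this order rests on that 1 UMI (4.35 CPM). It is not resolved there, since 3 UMIs in the low cells equal 33.6 CPM. These genes were picked by their rise over the same low-cell sums, so their order is a description. Fam192a was called in 6 of 14 alternatives, Pcbp4 in 8 of 16, Tpp1 in 7 of 16 and Tmem171 in 14 of 16.

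Hes1 was the 1 Notch pathway gene of 18 tested that fell. It went from 223 and 458 CPM in low cells to 118 and 112 CPM in high cells, a fall of -1.61 ± 0.37 with an adjusted p of 0.0333 that was called in 10 of 16 alternatives. Both low libraries were above both high libraries, while low and zero cells had overlapping Poisson intervals in each library (137 to 346 against 139 to 256 CPM unscaled in library 1, and 359 to 578 against 375 to 529 CPM in library 2). Sox9 went from 490 and 1279 CPM to 557 and 342 CPM (-1.03 ± 0.27, adjusted p 0.0893), a difference of 0.19 in library 1 and -1.90 in library 2, and was called in 3 of 16 alternatives. Of the 21 trunk and foregut factors tested, Hes1 was the one called.

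The immediate-early genes Jun, Fosb, Nr4a1 and Klf6 fell from low to high cells. They were 4 of 24 tested genes in a list of 32 for that response and for heat shock. Over all genes tested, 0.226% were called lower. Of the 24, 0 were called higher, and the median log2 fold was -0.42, against -0.01 over all genes tested. At an unadjusted p under 0.05, 8 were lower and 1 higher, against 4.5% and 4.46% of all genes tested. Jun, a subunit of the AP-1 factor, had 517 and 936 CPM in zero cells, 545 and 891 CPM in low cells and 214 and 349 CPM in high cells (-1.35 ± 0.24, adjusted p 0.00274). Fosb, its partner in AP-1, had 256 and 471 CPM in low cells and 10.7 and 158 CPM in high cells (-2.01 ± 0.40, adjusted p 0.0087). Against zero cells 0 of these 24 genes were called in low cells by edgeR, with 2 higher and 0 lower at an unadjusted p under 0.05.

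Atp1b1 fell from 645 and 840 CPM in low cells to 310.5 and 414 CPM in high cells (-1.03 ± 0.23, adjusted p 0.0287), after 982 and 1048 CPM in zero cells. The largest falls outside the lists were in Tlr3, Dek, Kifc3 and Acadl. Dek, a chromatin protein gene, fell from 156 and 165 CPM to 10.7 and 26.3 CPM (-2.96 ± 0.59, adjusted p 0.0087), and Tlr3, a receptor for double-stranded RNA, from 10 and 14 UMIs to 0 and 2 (adjusted p 0.0429). The kinesin gene Kifc3 fell from 89.0 and 178 CPM to 21.4 and 19.7 CPM (-2.74 ± 0.66), and Acadl, a mitochondrial fatty acid enzyme, from 256 and 95.4 CPM to 21.4 and 26.3 CPM (-2.63 ± 0.59). Dek was called in 14 of 16 alternatives, Tlr3 in 8 of 14, Kifc3 in 9 of 15 and Acadl in 9 of 16.

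The limit of under 5 UMIs on 8 cycle genes applied to all 3 classes, and cells with fewer such UMIs remained: a limit of under 2 would keep 20 of the 27 and 46 of the 54 low cells. No other cycle gene of the lists was called between low and zero cells, and the list medians of the 2 libraries differed in sign. Of 28 tested S phase genes 0 were called by edgeR, with 1 higher and 0 lower at an unadjusted p under 0.05 and a median of -0.01 (0.35 in library 1 and -0.38 in library 2). Of 37 tested G2 and M genes outside the rule 0 were called, with 3 higher and 1 lower at an unadjusted p under 0.05 and a median of 0.08 (0.48 and -0.35). From low to high cells the medians were -0.67 and -0.64, against -0.01 over all genes tested, with 0 called. At an unadjusted p under 0.05, 6 of the 28 and 7 of the 37 were lower and 0 higher. Over all genes tested these shares were 4.5% lower and 4.46% higher. The G1 cyclin genes Ccnd1 (-0.21 ± 0.32) and Ccnd2 (-0.64 ± 0.36) were not called between low and zero cells.

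A last contrast asked whether any gene in low cells lay off the midpoint of zero and high cells on the log2 scale. EdgeR called 0 of 6206 genes in either direction, with 208 above (3.35%) and 144 below (2.32%) at an unadjusted p under 0.05. DESeq2 also called 0, with 83 and 46 at an unadjusted p under 0.05. A gene without a call can still lie off the midpoint. Hes1, for example, had log2 folds of 0.11 from zero to low and -1.61 from low to high cells. Genes with equal levels in zero and low cells also depart from this midpoint, so the contrast cannot single out genes particular to low cells.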

How the data were processed

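For each library the authors deposited raw UMI counts over 25507 gene symbols, aligned to GRCm38 per the submitters' processing notes. Cells were encapsulated with inDrop and their RNA amplified linearly as in CEL-Seq, per the labels' protocols. Which aligner and counter were used, and whether strand was used, is not given in the sources used here.

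The cells and gene lists were chosen with earlier results of these data known. Counts were summed per library over 5 classes: zero, low and high cells, cells with at least 4 Neurog3 UMIs and under 3 Spp1 UMIs (69 and 100), and Spp1 cells past the limit on cycle genes (22 and 56). The 10 sums, of 89377 to 304140 UMIs, were TMM-scaled and fitted by the quasi-likelihood method of edgeR 4.0.16 under R 4.3.3. Class and library were its terms, low counts were filtered at edgeR's defaults, and 4 residual degrees of freedom remained. P-values were adjusted by Benjamini-Hochberg over 6206 genes, at 0.05. Library entered as a block because the classes share libraries, and the differences between the 2 libraries correlated at 0.05 to 0.11 between classes. For folds within 1 library, 1 CPM was added to both levels. DESeq2 1.42.0 was an alternative, and its adjusted p was missing for 4092 genes in high against low cells. Thinning drew 1000 UMIs per cell, and Scrublet ran in scanpy 1.11.5.

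Genes were named by rule: a panel of 28, and, among genes passing the test with 1 sign in both libraries, for low against zero the 12 list genes with the lowest adjusted p and the 6 largest rises and falls outside the lists, for high against low 6 list genes, 1 per list, and 4 rises and falls, and for the contrast with the midpoint 5 of each. The first and last of these named no further gene, and 1 gene of the panel is not reported here. Positions are from GENCODE M21, which held 95.2% of the symbols once. Exons of 19 genes overlap another gene, on the same strand for Neurod1, Notch2 and Spp1 and on the other for Atp1b1, Cbfa2t3, Ccnd1, Ccnd2, Cdkn1a, Dek, Dll1, Fam192a, Gadd45a, Jun, Kifc3, Neurog3, Nkx2-2, Pcbp4, Sox4 and Tlr3, and their levels are uncertain to that extent.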

Additional observations from a re-analysis of the deposited data

How the results depend on the processing

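The counts of called genes moved with some settings. Low against zero cells gave 3 genes higher and 1 lower without the filter on low counts, 2 higher with at least 2000 UMIs per cell, 2 higher and 1 lower with cycle genes under 2, 0 higher with 1 Neurog3 UMI and 9 higher with 2 or 3. High against low cells gave 12 higher and 6 lower by DESeq2, 11 and 3 without the library block, 13 higher with only the zero, low and high classes, 7 and 7 after thinning, 0 and 0 with low cells of 2 or 3 Neurog3 UMIs, and 9 lower with Spp1 at least 5. The midpoint contrast gave 1 higher and 1 lower with 1 Neurog3 UMI. Kifc3 reversed, at 0.12 (high minus low) with low cells of 2 or 3 Neurog3 UMIs. The cause of these changes was not tested, except that fewer cells and fewer tested genes entered the thinned and split fits. Without the library block Insm1 kept its call between low and zero cells (2.21, adjusted p 0.0071, range over its alternatives 2.22e-07 to 0.932). Of 1144 single-gene values with a test, 1037 kept direction and call, 89 lost the call, 17 gained it and 1 reversed. Some settings removed few cells or none, so their values could hardly change.

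Leaving out a library left no residual degrees of freedom, so only folds were compared. Splits by Neurog3 count, Spp1 at least 5, cycle genes under 2, removal of doublets and removal of shared barcodes put a class under 20 cells and were also run without that minimum, which was decided after seeing the data. The low cells of library 1 hold 89377 UMIs, where 3 UMIs equal 33.6 CPM, so genes below that level could not be resolved there.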

Other observations

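In library 1 an Xist UMI was present in 63.0% of low cells (17 of 27), 39.7% of zero cells (25 of 63) and 30.0% of high cells (6 of 20). In library 2 the shares were 11.1%, 9.57% and 10.9%. The Y-linked gene Ddx3y had a UMI in 14.8%, 20.6% and 30.0% of the low, zero and high cells of library 1 and in 20.4%, 24.3% and 34.8% of those of library 2. Other Y-linked genes did not all go this way. In low and zero cells of library 1, Uty had 18.5% and 14.3%, Kdm5d 25.9% and 31.75%, and Eif2s3y 7.41% and 7.94%. In library 2, Uty had 7.41% and 6.96%, Kdm5d 29.6% and 23.5%, and Eif2s3y 20.4% and 10.4%.

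The cells with 4 or more Neurog3 UMIs and under 3 Spp1 UMIs (69 and 100) had 1438 and 1631 CPM of Insm1, above the high cells of either library. They had 9.79 and 25.3 CPM of Hes1, 137 and 213 CPM of Sox9 and 24.5 and 25.3 CPM of Cyr61, all below the high cells.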
